A study of Homo sapiens with 4 samples.

Results

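Broad H3K4me3 domains that carried a single TAF3 peak were examined in HCT116 cells, an established human colorectal carcinoma line. A domain was an H3K4me3 peak of 4000 bp or more that overlapped exactly 1 TAF3 peak and at least 1 RNAPII peak in the authors' filtered lists, by at least 1 bp. There were 419 such domains among 14298 H3K4me3 peaks (2.93%, Wilson 95% interval 2.67 to 3.22%). The series holds 1 library each of chromatin immunoprecipitated with a TAF3 antiserum, an H3K4me3 antibody (Abcam ab8580) and an RNAPII antibody (Santa Cruz N-20), and 1 library of input DNA. All 4 came from HCT116 monolayers grown in DMEM, with fixation in 1% formaldehyde for 10 min, and no treatment or genotype was compared. There were no replicates, so no test across samples was possible, and intervals below cover only the counting of peaks.

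H3K4me3 is trimethylation of lysine 4 on histone H3, a mark of active and poised promoters that usually flanks the start site of transcription. TAF3 belongs to TFIID, the general factor that nucleates the preinitiation complex at promoters, and its PHD finger binds H3K4me3. RNAPII, RNA polymerase II, initiates within that complex and often pauses a short way downstream before it enters the gene body. Most H3K4me3 peaks span only a few nucleosomes on each side of a start site, and unusually broad domains of the mark have been linked to genes of cell identity and to tumour suppressors. The regions are named below by hg19 coordinates counted from 1, and genes and sequences were not analysed here, because the gene tables at hand were on another build.

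After duplicate removal the libraries held between 12560129 tags (H3K4me3) and 19185386 tags (input). Over the whole H3K4me3 list, 80.9% of peaks overlapped a filtered TAF3 peak, 95% overlapped a filtered RNAPII peak and 3.69% reached 4000 bp. Exactly 1 TAF3 peak was present at 79.2% of all H3K4me3 peaks, and 2 or more at 1.66%. The domains were chosen by H3K4me3 width, TAF3 peak count and RNAPII presence, so values from these same 3 libraries describe them and test nothing. The fold enrichment used throughout is the authors' own value for each peak, the ratio of its summit height to what the peak caller expected there from input.

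At the 4000 bp limit, wide H3K4me3 peaks held exactly 1 TAF3 peak about as often as the whole list did. They held none less often and several more often. Of the 527 H3K4me3 peaks of 4000 bp or more, 419 overlapped exactly 1 TAF3 peak (79.5%, 95% interval 75.9 to 82.7%), and all 419 also overlapped RNAPII. The share over the whole list, 79.2%, lies inside that interval. Another 95 overlapped 2 TAF3 peaks (18.0%), 5 overlapped 3 and 8 overlapped none (1.52%). Over the whole list, 1.66% overlapped 2 or more and 80.9% overlapped at least 1. The share with exactly 1 TAF3 peak and RNAPII was 91.6% of H3K4me3 peaks from 3000 bp and 68.6% of those from 5000 bp. It thus fell as the width limit rose, and the TAF3 count is part of the rule that chose the domains. The 419 domains made up 2.93% of H3K4me3 peaks but held 5.95% of the bases and 6.95% of the tags in the H3K4me3 list. Their 419 TAF3 peaks, 3.56% of the TAF3 list, held 7.04% of its bases and 8.77% of its tags. The 493 RNAPII peaks on them were 1.97% of the RNAPII list and held 7.41% of its tags. Tag counts grow with peak width, and these shares were not corrected for it.

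The domains were 4001 to 8501 bp wide, with a median of 4383 bp (quartiles 4136 and 4931 bp). The widest lay at chr17:79366174-79374674 and spanned 8501 bp, with 168-fold enrichment and 2958 tags of H3K4me3. Its TAF3 peak was 8492 bp long and covered 98.8% of the domain, at 49.6-fold enrichment with 1598 tags, and its strongest RNAPII peak reached 127-fold over 3431 bp. In this domain TAF3 was spread over nearly the whole marked region at an enrichment below the median of the group, and RNAPII was called as 3 peaks.

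The second widest, chr10:114708973-114717178, was 8206 bp wide with 166-fold H3K4me3, 72.0-fold TAF3 and 79.6-fold RNAPII. Its filtered TAF3 peak covered 57.3% of the domain, and a TAF3 peak below the filter, of 10.5-fold and 62 tags, lay on the longer flank 3945 bp from the main summit. The third, chr12:66216224-66224300, spanned 8077 bp with 215-fold H3K4me3, 73.5-fold TAF3 and 166-fold RNAPII. The summit of that RNAPII peak lay outside the domain, and the RNAPII peak over the TAF3 summit had 157-fold enrichment. Here RNAPII ran 18161 bp past the edge of the domain on the side of the longer H3K4me3 flank.

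The fourth, chr6:32934551-32942589, had 126-fold H3K4me3, 85.2-fold TAF3 and 202-fold RNAPII over 8039 bp, and 1 RNAPII peak of 19132 bp covered it whole. The fifth, chr3:98614154-98621932, had 169-fold H3K4me3, 113-fold TAF3 and 177-fold RNAPII over 7779 bp, inside 1 RNAPII peak of 22332 bp. In the map of the 5 widest domains, the RNAPII peak over the TAF3 summit has its longer side opposite the longer H3K4me3 flank in the second and the fourth, and on that flank in the other three.

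**Figure D1:**
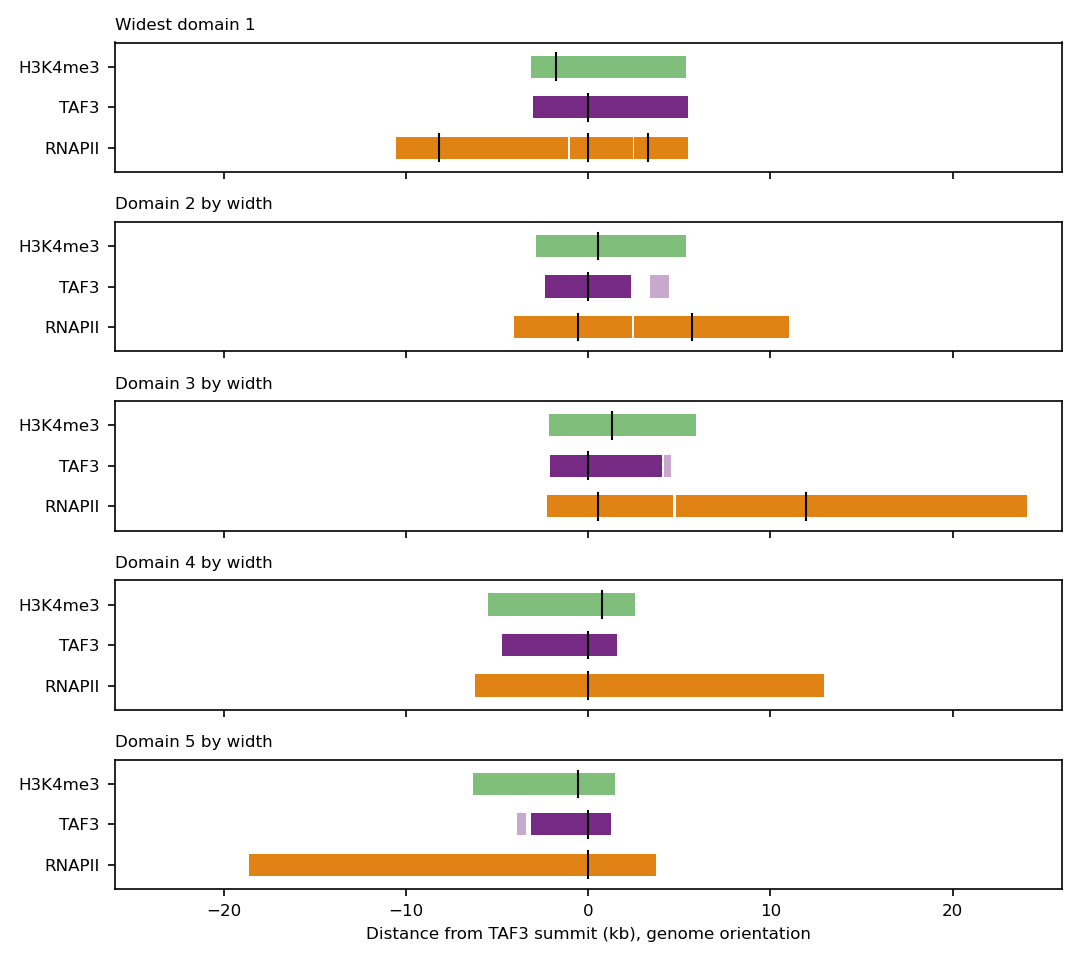
Peaks at the 5 widest broad H3K4me3 domains, as distance in kb from the TAF3 summit, with bars for called peaks, black ticks for summits of filtered peaks and pale bars for TAF3 peaks below the authors' filter. The TAF3 bar spans 98.8% of the H3K4me3 bar in the widest domain and 57.3% in the second, and RNAPII bars run up to 18161 bp past the H3K4me3 edge.

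The TAF3 peaks of the broad domains were stronger than those of narrower H3K4me3 peaks. The comparison group was the 10867 H3K4me3 peaks under 4000 bp that also overlapped exactly 1 TAF3 peak and at least 1 RNAPII peak. Median TAF3 fold enrichment was 55.1 in the broad domains (95% interval of the median 51.9 to 58.8, quartiles 37.4 and 78.1) and 36.3 in the narrower peaks (95% interval 36.0 to 36.7), a ratio of 1.52. Median H3K4me3 fold enrichment was 155 against 139.98, a ratio of 1.11. The TAF3 ratio was thus larger than that of the mark, although the quartile ranges overlapped. These ratios come from different libraries. Keeping 1 tag per position removed 40.2% of H3K4me3 tags and 14.2% of TAF3 tags. That bounds H3K4me3 in dense places, and its effect on the ratios was not tested. Within quintiles of H3K4me3 fold enrichment the TAF3 ratio ran from 1.24 to 1.44, and weighted by the number of broad domains in each it was 1.34. TAF3 fold enrichment was in the top 10% of the TAF3 list in 117 broad domains (27.9%) and in 9.90% of the narrower peaks.

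RNAPII was also stronger in the broad domains, by a smaller ratio. The strongest RNAPII peak of a domain had a median fold enrichment of 131 (95% interval 125 to 138), against 109 at narrower peaks (95% interval 108 to 109.8), a ratio of 1.21. This takes the highest of all overlapping RNAPII peaks, whose summit can lie outside the domain. Broad domains had 2 or more such peaks in 16.5% of cases and narrower peaks in 3.31%, which favours a higher value in broad domains. Per base of the peak the ratio was 1.07 for RNAPII and 1.34 for TAF3. RNAPII fold enrichment was in the top 10% of its list in 158 of the 419 domains (37.7%) and in 21.7% of the narrower peaks. Next to the width limit it was nearly level, with a median of 125 at 3500 to 3999 bp and 129 at 4000 to 4499 bp. From 6000 bp the median was 157. The 100 wide H3K4me3 peaks with 2 or more TAF3 peaks had a median of 131, with 41% in the top 10%, so this strength was not particular to the 419 domains.

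**Figure D2:**
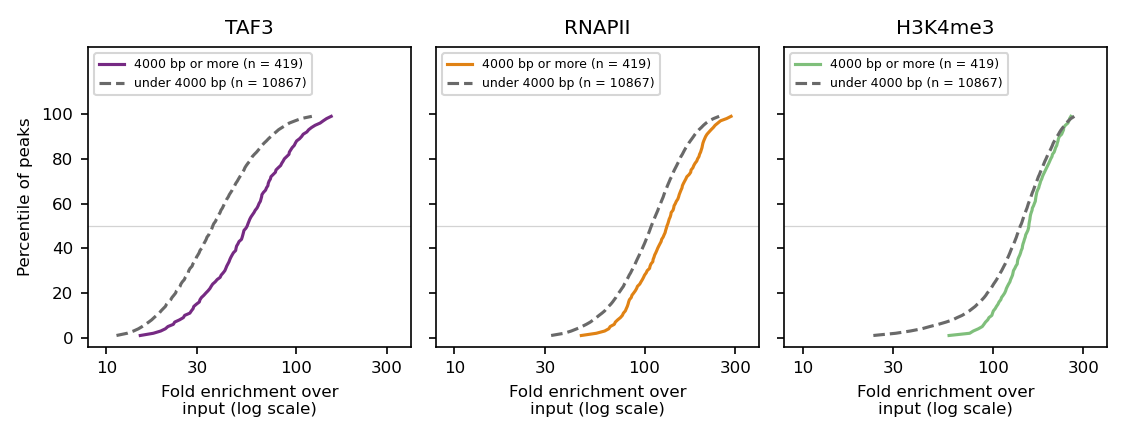
Percentile curves of fold enrichment over input (log scale) for TAF3, RNAPII (strongest peak) and H3K4me3 in the 419 broad domains (solid) and the 10867 narrower H3K4me3 peaks with 1 TAF3 peak and RNAPII (dashed). The medians are 55.1 and 36.3 for TAF3, 131 and 109 for RNAPII and 155 and 139.98 for H3K4me3, so the ratio of medians is largest for TAF3. The libraries differ in duplicate removal, and its effect on the ratios was not tested.

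The strongest TAF3 peak in a broad domain was at chr5:60625710-60630299, with 215-fold TAF3, 220.4-fold RNAPII and 216-fold H3K4me3. The domain at chr2:198362256-198366952 had 158-fold TAF3, 289.9-fold RNAPII and 218-fold H3K4me3, and chr14:69256203-69263502 had 155-fold TAF3, 277-fold RNAPII and 222-fold H3K4me3. All 3 were above the upper quartile of the group in every library, with RNAPII summits 7, 10 and 18 bp from the TAF3 summit. The next in order were chr1:46766610-46770977 (154-fold TAF3) and chr15:72519245-72525129 (152-fold TAF3), with RNAPII summits 24 and 3 bp away.

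The weakest TAF3 peak was at chr16:54961419-54965749, with 9.95-fold TAF3, 69.7-fold RNAPII and 119-fold H3K4me3, and it covered 35.0% of its domain. At chr17:75281631-75285652 TAF3 was 10.1-fold, RNAPII 35.1-fold and H3K4me3 27.8-fold, the lowest H3K4me3 enrichment of the 419, yet the TAF3 peak covered 86.6% of the domain. The other three of lowest TAF3 enrichment, chr10:103876948-103881195 (12.9-fold), chr7:92461542-92467176 (14.4-fold) and chr9:20620911-20625125 (14.8-fold), had 84.4- to 101-fold H3K4me3 and 60.6- to 65.5-fold RNAPII. So at the low end all 5 domains were below the group medians for TAF3, RNAPII and H3K4me3 alike.

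Among the 419 domains the order of TAF3 strength followed RNAPII more closely than H3K4me3 strength or width. The rank correlation of fold enrichment across domains was 0.77 between TAF3 and RNAPII, 0.49 between TAF3 and H3K4me3 and 0.50 between RNAPII and H3K4me3. In the narrower peaks the same values were 0.74, 0.55 and 0.54. H3K4me3 width was nearly unrelated to fold enrichment within the broad domains, with rank correlations of 0.087 for TAF3, 0.072 for RNAPII and -0.10 for H3K4me3. These are descriptions over peaks that share 1 library per antibody and the same input in every ratio, and peaks are not independent replicates.

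TAF3 peaks widened with the domain, and RNAPII peaks widened more. The TAF3 peak of a broad domain had a median width of 3151 bp (quartiles 2628 and 3851 bp), against 1552 bp at narrower peaks, a ratio of 2.03, while the H3K4me3 widths themselves had a ratio of 1.84. TAF3 covered a median of 70.3% of the domain (95% interval 68.4 to 72.6%), against 64.9% of narrower peaks (95% interval 64.6 to 65.2%). The single TAF3 peak of a broad domain was thus usually a broad peak too, rather than a narrow one inside a wide mark. It covered at least 50% of the domain in 372 of 419 (88.8%), a share close to the 88.5% of narrower peaks. Cover of at least 90% occurred in 38 domains (9.07%) against 3.45% of narrower peaks, and cover under 25% in 6 (1.43%) against 0.34%. It lay wholly inside the domain in 374 (89.3%), against 81.4% of narrower peaks.

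Along the H3K4me3 list the change across 4000 bp was gradual. Median TAF3 width rose from 2081 bp at H3K4me3 peaks of 3000 to 3499 bp through 2524 bp at 3500 to 3999 bp to 2843 bp at 4000 to 4499 bp, and was 5339 bp in the 34 domains of 6000 bp or more. Median TAF3 fold enrichment was 45.0 at 3000 to 3499 bp and 48.7 at 3500 to 3999 bp. Among the broad domains it was 53.8 at 4000 to 4499 bp, 52.2 at 4500 to 4999 bp, 53.6 at 5000 to 5999 bp and 73.0 from 6000 bp. TAF3 enrichment was thus level from 4000 to 5999 bp and higher in the 34 widest domains. Median H3K4me3 fold enrichment lay between 146 and 158 in these 6 classes, at 146 in each of the 2 widest.

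**Figure D3:**
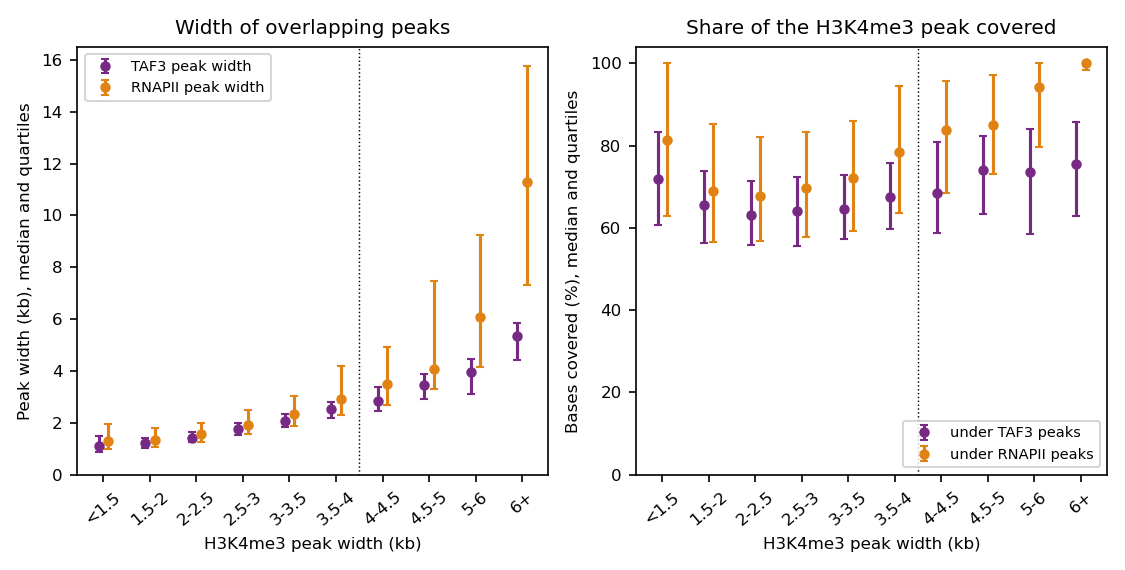
Left, median width in kb of the TAF3 peak and of the widest RNAPII peak by H3K4me3 peak width, with bars for quartiles. Right, median percent of H3K4me3 bases under TAF3 and under RNAPII peaks. The dotted line marks 4000 bp. At 6 kb or more the medians are 5339 bp for TAF3 and 11275 bp for RNAPII.

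The widest RNAPII peak on a broad domain had a median width of 3983 bp (quartiles 2939 and 7168 bp), against 1741 bp at narrower peaks, a ratio of 2.29. It reached 10000 bp or more in 63 domains (15.0%, 95% interval 11.9 to 18.8%) and in 1.81% of narrower peaks. In the domains of 6000 bp or more its median width was 11275 bp, and RNAPII peaks covered a median of 100% of the domain. Over all 419, RNAPII covered a median of 86.8% of the domain, against 70.3% of narrower peaks. Polymerase calls therefore covered more of a broad domain than the TAF3 peak did.

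RNAPII ran past at least 1 edge of the domain in 242 of 419 (57.8%, 95% interval 53.0 to 62.4%) and past both in 108 (25.8%), against 43.7% and 11.1% of narrower peaks. A single RNAPII peak covered the whole domain in 90 (21.5%). In 350 domains RNAPII was 1 called peak, in 63 it was 2 and in 6 it was 3. So 16.5% of broad domains had 2 or more RNAPII peaks, beside 4.06% of all H3K4me3 peaks, and a longer interval can hold more peaks. Only 1 RNAPII peak was shared by 2 broad domains, and no TAF3 peak was. The 100 wide H3K4me3 peaks with 2 or more TAF3 peaks were much alike in RNAPII. It ran past at least 1 edge in 61% of them and past both in 27%. Its median cover there was 88.9%, and the widest RNAPII peak had a median of 4535 bp.

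The domains with the strongest RNAPII were led by chr11:65265060-65272791, with 299-fold RNAPII, 132-fold TAF3 and 99.8-fold H3K4me3. There a single RNAPII peak of 12741 bp and 6360 tags covered the domain and ran 1367 bp past it on the left and 3642 bp on the right. The second, chr1:8934249-8940507, had 294-fold RNAPII, 138-fold TAF3 and 287-fold H3K4me3, the highest H3K4me3 enrichment of the 419. So the strongest RNAPII occurred both below and far above the median H3K4me3 enrichment of the group. The others were the domain on chromosome 2 named above, chr20:43972957-43977643 (288.7-fold RNAPII, 123-fold TAF3, 157-fold H3K4me3) and chrX:41189800-41195601 (286-fold RNAPII, 77.5-fold TAF3, 178-fold H3K4me3).

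TAF3 and RNAPII summits lay together in broad domains about as often as in narrower peaks. The median distance from the TAF3 summit to the nearest RNAPII summit was 39 bp (quartiles 13 and 245 bp), against 42 bp, and it was at most 50 bp in 241 of 419 (57.5%, 95% interval 52.7 to 62.2%), against 54.8%. A tail of 36 domains (8.59%, 95% interval 6.27 to 11.7%) had it over 1000 bp away, up to 11997 bp, against 2.03% of narrower peaks. In these 36 the median fold enrichment was 44.3 for TAF3 and 109 for RNAPII, compared with 56.2 and 134 in the other 383, and their widest RNAPII peak had a median of 4804 bp against 3935 bp. An RNAPII peak covered the TAF3 summit in all 419, as it did in 99.9% of narrower peaks.

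The H3K4me3 summit lay further from the TAF3 summit in broad domains. The median distance was 437 bp (quartiles 198 and 846 bp), against 224 bp at narrower peaks, a ratio of 1.95 that is close to the ratio of H3K4me3 widths. The H3K4me3 summit fell inside the TAF3 peak in 412 of 419 and within 50 bp of the TAF3 summit in 13. It lay on the longer of the flanks that the TAF3 summit leaves in the domain in 269 of 419 (64.2%, 95% interval 59.5 to 68.6%), against 81.3% of narrower peaks (95% interval 80.6 to 82.0%). The longer flank held 65.2% of the bases in broad domains and 62.3% in narrower peaks, among those with the TAF3 summit inside. The summit shares above also count 279 narrower peaks with the TAF3 summit outside, where the H3K4me3 summit is on the longer flank by construction. With TAF3 and RNAPII summits required inside the H3K4me3 peak, they were 63.6% in broad domains and 80.8% in narrower peaks. In broad domains the H3K4me3 summit thus lay on the longer flank about as often as that flank's share of bases, and in narrower peaks more often. This share of summits was 71.4% at 3500 to 3999 bp and between 51.9% and 70.6% in the classes of broad domains. At H3K4me3 peaks under 1500 bp it was 87.4%, and the lowest share, 51.9%, was that of the 81 domains of 4500 to 4999 bp.

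The TAF3 summit lay in the middle one of 3 equal parts of the domain in 253 of 419 (60.4%, 95% interval 55.6 to 65.0%), against 68.3% of narrower peaks. The share was 36.8% under 1500 bp and 56.3% at 1500 to 1999 bp, was highest at 3000 to 3499 bp (81.2%), and was 63.9% at 4000 to 4499 bp, 65.4% at 4500 to 4999 bp, 45.0% at 5000 to 5999 bp and 50.0% from 6000 bp. In base pairs the TAF3 summit was a median of 1639 bp from the nearer edge and 2865 bp from the farther edge, against 887 and 1484 bp at narrower peaks. Both flanks were longer in the broad domains, and TAF3 summits off centre were most common in the narrowest H3K4me3 peaks and, among the broad domains, from 5000 bp.

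The 5 domains with the TAF3 summit nearest an edge shared a feature. At chr22:46467191-46471501 the TAF3 summit lay 1166 bp outside the domain, the only such case in the 419, with 88.8-fold TAF3, 156-fold RNAPII and 135-fold H3K4me3. At chr18:46474309-46478455 it lay 130 bp inside an edge, with 29.4-fold TAF3, 85.2-fold RNAPII and 77.3-fold H3K4me3. In the other three, chr15:75741968-75746486, chr5:92918746-92922980 and chr2:182756547-182760994, it lay 186, 247 and 323 bp inside, with 51.4-, 65.6- and 65.7-fold TAF3. In all 5 the TAF3 peak also touched a second H3K4me3 peak next to the domain, which was so in only 6 of the 419 (1.43%) and in 4.79% of narrower peaks. The nearest other H3K4me3 peak was 160, 130, 62, 33 and 117 bp away, in the order above. The position near an edge thus depends on where H3K4me3 was split into separate peaks.

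At the other end, chr11:62620756-62625747 had its TAF3 summit at 49.7% of the domain's length, with 77.2-fold TAF3, 121-fold RNAPII and 100.1-fold H3K4me3. Next to the centre came chr10:32215435-32219901 (44.2-fold TAF3, 147-fold RNAPII, 190.1-fold H3K4me3) and chr4:17810269-17814403 (65.1-fold TAF3, 175-fold RNAPII, 145-fold H3K4me3). Their H3K4me3 summits lay 54, 25 and 138 bp from the TAF3 summit, all well under the median of the group. The remaining pair, chr2:55842572-55846813 and chr4:99577587-99581701, had 47.9- and 38.6-fold TAF3 with H3K4me3 summits 211 and 505 bp away.

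Seen from the TAF3 summit, TAF3 and RNAPII peaks were mostly longer on the side of the longer H3K4me3 flank. Base pairs of RNAPII past the edge could not decide on a lean, since the edges lie at unlike distances from that summit. The TAF3 peak lies inside the domain in most cases, so the shorter flank bounds its shorter side, and the agreement of TAF3 with the mark is not independent of that nesting. The same bound holds for RNAPII in the 177 domains where it passed no edge, so its agreement is not independent of nesting either. Seen from the TAF3 summit, the longer side of the TAF3 peak was the side of the longer H3K4me3 flank in 373 of 419 domains (89.0%, 95% interval 85.7 to 91.7%), against 76.5% of narrower peaks. The longer side of the RNAPII peak over the TAF3 summit was that side in 338 of 418 (80.9%, 95% interval 76.8 to 84.3%), against 65.6%. At the narrower peaks of 3500 to 3999 bp it was 76.0% (95% interval 72.5 to 79.2%), so next to the width limit the intervals overlapped. All sides here are measured from 1 summit, so an error in its place moves them together. With sides taken from the summit of the strongest RNAPII peak the share was 80.9% in broad domains and 70.2% in narrower peaks. That peak was not always the one over the TAF3 summit. Where its summit lay outside both the latter peak and the domain, the sides agreed by construction. This can occur only with 2 or more RNAPII peaks, as in 16.5% of broad domains and 3.31% of narrower peaks. These shares therefore cannot settle the difference between the groups. By base pairs past the edge, RNAPII ran further past the edge of the longer flank in 132 of the 242 broad domains where it passed an edge (54.5%, 95% interval 48.2 to 60.7%). In narrower peaks that share was 32.3%. The edge of the shorter flank is the nearer one to the TAF3 summit, so neither share shows a lean. The peak lists carry no strand, and the direction of transcription was not analysed here.

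**Figure D4:**
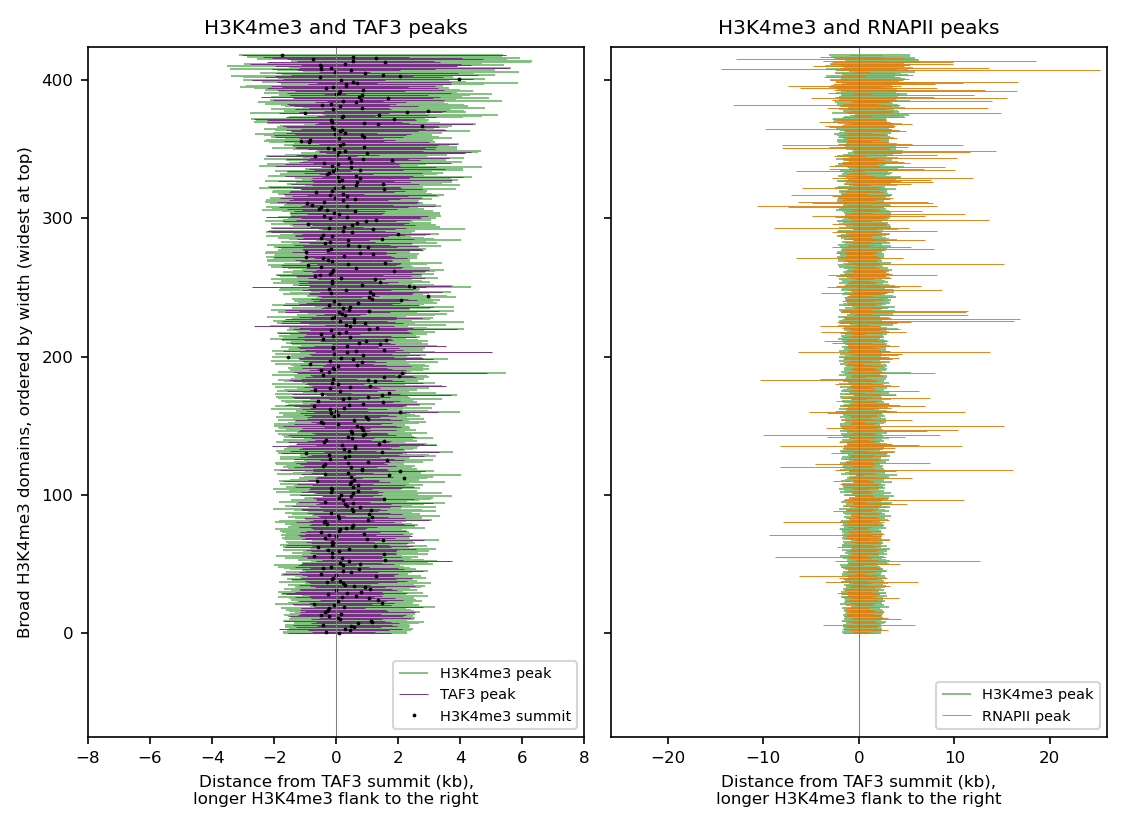
All 419 broad domains, one per line in order of width, with 0 at the TAF3 summit and the longer H3K4me3 flank to the right (kb). Left, H3K4me3 peak (green), TAF3 peak (purple) and H3K4me3 summit (black), which falls on the longer flank in 269 domains. Right, the RNAPII peak over the TAF3 summit (orange), whose longer side is on the right in 338 of 418.

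**Figure D5:**
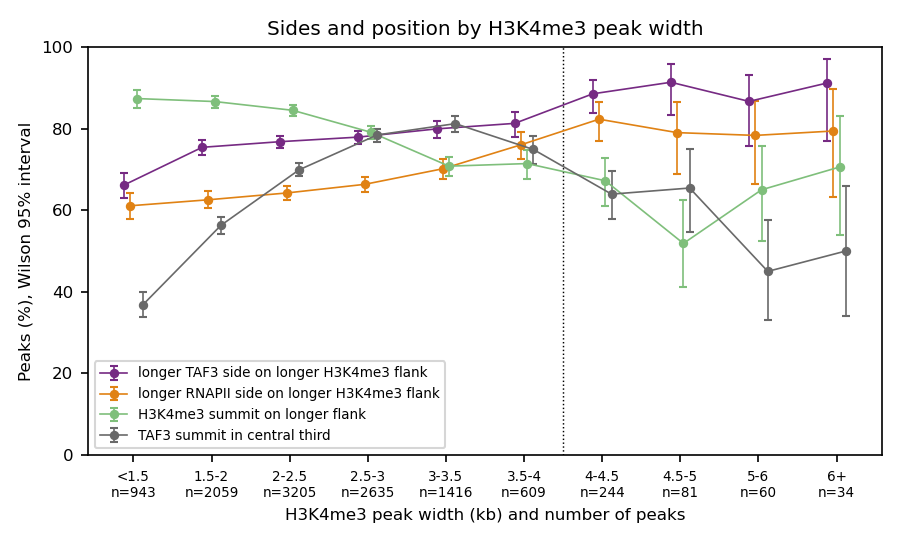
Percent of H3K4me3 peaks with exactly 1 TAF3 peak and RNAPII, by H3K4me3 peak width in kb, that show each of 4 arrangements around the TAF3 summit, with Wilson 95% intervals. The dotted line marks 4000 bp. At 4 to 4.5 kb the TAF3 side (88.5%) and RNAPII side (82.3%) stand above their values at 3.5 to 4 kb (81.3% and 76.0%), while the H3K4me3 summit (67.2% against 71.4%) and the central position of TAF3 (63.9% against 74.9%) stand below.

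A single filtered TAF3 peak did not always mean a single called peak. Of the 419 domains, 94 (22.4%, 95% interval 18.7 to 26.7%) overlapped at least 1 further TAF3 peak of the full list that the authors' filter had left out, beside 17.9% of all H3K4me3 peaks and 4.71% of the narrower peaks with 1 filtered TAF3 peak. The 17.9% includes H3K4me3 peaks with no filtered TAF3 peak. Among the 100 wide H3K4me3 peaks with 2 or more filtered TAF3 peaks the share was 18%. These 94 domains held 130 such peaks, 66 of the domains with 1, 22 with 2 and 6 with 3 or more. The share rose with width, from 10.8% at 3500 to 3999 bp through 17.2% at 4000 to 4499 bp to 35.3% from 6000 bp.

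The 130 peaks were small. They had a median of 28 tags (range 10 to 91) and 10.3-fold enrichment (range 4.60 to 27.1), a median width of 632 bp and a median distance of 2114 bp from the main TAF3 summit. All 130 missed the limit on the false discovery rate, with values from 5.33% to 51.2%, and 2 also missed that on fold enrichment. On the longer H3K4me3 flank lay 105 of them (80.8%), where 73.8% of the bases beside the main TAF3 peak of these domains lay. Per Mb of domain beside the main TAF3 peak there were 218 such peaks in broad domains and 57.7 in narrower peaks. Filtered RNAPII peaks overlapped 109 of the 130, and they covered a median of 86.8% of the bases of the 419 domains, so such overlap is common there.

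How much of the domain the TAF3 peak covered went with these smaller peaks. Among the 47 domains with under 50% covered, 37 had a TAF3 peak below the filter (78.7%), compared with 47 of 203 (23.2%) at 50 to 75% and 10 of 169 (5.92%) from 75%. Median TAF3 fold enrichment in the 3 classes was 34.9, 58.2 and 54.4, and RNAPII covered a median of 76.3%, 77.6% and 97.3% of the domain. Bases beside the main TAF3 peak, where a further one could be called, are fewer where cover is high. The class with the least cover had the lowest median TAF3 and RNAPII enrichment and the highest share of domains with a TAF3 peak below the filter.

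Values next to the width limit are given as a description. The 5 narrowest were 4001 to 4005 bp wide and had 41.1- to 141-fold TAF3, among them chr13:53224726-53228728 (98.2-fold) and chr6:89788934-89792936 (141-fold). The 5 widest H3K4me3 peaks under the limit that met the rest of the rule were 3988 to 3999 bp wide and had 21.3- to 91.8-fold TAF3, among them chr21:33783218-33787216 (31.9-fold) and chr12:90100697-90104684 (91.8-fold). The ranges overlapped, with the highest on the inner side.

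Broad domains with 1 TAF3 peak lay on every autosome and on chromosome X. Chromosome 1 had the most, 45, followed by chromosome 17 with 40 and chromosome 6 with 31. As a share of the H3K4me3 peaks on the chromosome they ranged from 0.68% on X (3 of 441, 95% interval 0.23 to 1.98%) to 5.53% on 13 (14 of 253, 95% interval 3.32 to 9.07%), with 4.57% on 17 (40 of 875). HCT116 is a cultured line, and copy number was not analysed here. The gap to the next H3K4me3 peak had a median of 31959 bp, against 30900 bp for narrower peaks, and another H3K4me3 peak lay within 2000 bp of 8.35% and 9.59% of them.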

How the data were processed

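Per the file headers, MACS 1.4.2 called the peaks of each antibody library with input as control (p cutoff 1e-05, band width 300 bp), keeping no more than 1 tag at a position. The submitters' processing notes name hg19 and CASAVA 1.8.2, and how CASAVA was run is not given there. Each deposited tag count is raw. Fold enrichment as deposited is a ratio over the expected local level. The deposited score is 10 times the negative log10 of the p-value, and the rate of false discoveries was deposited in percent. The authors' filtered lists were checked to hold exactly the peaks of more than 5-fold enrichment whose rate was under 5%. With 1 tag kept per position, duplicate removal took 40.2% of H3K4me3 tags, which bounds tags in dense places.

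Here, domains, sides, coverage and distances were computed with Python 3.11.15, numpy 2.4.6, pandas 2.3.3 and scipy 1.17.1. The code passed 11 of 11 checks on simulated data and gave the overlap counts of bedtools 2.31.1 for 3 of 3 list pairs. Shares carry Wilson 95% intervals and medians binomial order-statistic intervals. No test was made, since each antibody has 1 library. The domains and measures were chosen with earlier results of these data known. Named regions are the 5 at each end of width, TAF3 enrichment and TAF3 position, the 5 of highest RNAPII enrichment, and those next to 4000 bp, of which some are given by range. Alternatives changed the overlap rule, the width limit, the lists and the measures.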

Additional observations from a re-analysis of the deposited data

How the results depend on the processing

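There are no replicates, so none could be left out. The added RNAPII peaks, the RNAPII values within quintiles, the sides from the RNAPII summit, the narrower peaks of 3500 bp or more and the measure past the edge were chosen after seeing the data. The 10 results had 70 values under alternatives, and in 49 the change was smaller than the 95% interval allows, or under 1.5 times for a count. Requiring summits inside the domain, 10-fold enrichment in every list, leaving out chromosomes X and Y, and adding RNAPII peaks of strong score that the filter left out moved none of the 10. These alternatives left 415, 420, 416 and 419 domains, so they hardly changed the set and could move little. Most of the 49 come from them. The 21 values that moved came from changes of the width limit, the measures or the peaks compared. With full TAF3 and RNAPII lists there were 327 domains, of which 325 were among the 419. From 3000 bp there were 2444 domains, 91.6% of the wide peaks, with a TAF3 ratio to narrower peaks of 1.39, 66.3% of the domain under TAF3, 76.1% with a central TAF3 summit, 69.8% with the H3K4me3 summit on the longer flank, 73.5% with RNAPII on that side and 11.2% with TAF3 below the filter. From 5000 bp there were 94, 68.6% of the wide peaks, with 1.76, 74.9%, 46.8% and 35.1% for the TAF3 ratio, cover, central summit and TAF3 below the filter. By tags per bp the ratio was 1.34 for TAF3 and 1.07 for RNAPII, and the TAF3 ratio within quintiles of H3K4me3 was 1.34. Of the domains, 74.5% had the TAF3 summit at least 1333 bp from an edge. Where flanks differed by 500 bp or more, the H3K4me3 summit share was 69.9% and the RNAPII share 85.9%. By base pairs past the edge the RNAPII share was 54.5%. The peaks below the filter had a median of 28 tags, and the effect of depth on them was not tested.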

Other observations

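Among H3K4me3 peaks of 4000 bp or more, 8 had no filtered TAF3 peak. They were led by chr2:60778990-60783286 with 146-fold H3K4me3 and 38.7-fold RNAPII, followed by chr16:49888767-49893632 with 107-fold H3K4me3 and 62.4-fold RNAPII. A TAF3 peak of the full list, below the filter, overlapped 7 of the 8, and the 14 such peaks had 8.16- to 15.3-fold enrichment. The exception was chr11:16625675-16629945, with 101-fold H3K4me3 and no filtered RNAPII peak. RNAPII at the other 7 ran from 24.1- to 62.4-fold, and the 419 domains with 1 TAF3 peak ran from 34.8- to 299-fold.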
